A study of Homo sapiens with 6 samples.

Results

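The complement genes described here were C3, CFB, C1R, C1S, CFI, SERPING1, CD46, CD55 and CD59, chosen by gene name, 9 of the 58735 genes in the expression table. They comprise components of the complement cascade and the soluble and membrane proteins that hold it in check. RNA-seq was performed on U251, an established human glioblastoma cell line, in an NC group that received sterile deionized water (n = 3) and a TNF-α group that received 10 ng/mL of recombinant human tumor necrosis factor-α, an inflammatory cytokine (n = 3). Both groups were kept in the same medium and harvested after 24 h, and the labels describe the 3 samples of each group as independent biological replicates of the same line. Levels are given in FPKM, fragments per kilobase of gene relative to the library size, as deposited. This scale is per length of all annotated exons of a gene, not of the transcripts present, so levels of different genes compare only roughly.

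Complement is a cascade of plasma and tissue proteases that marks targets with fragments of C3 and can end in a pore in the membrane. The classical pathway starts with C1q and the proteases C1r and C1s, and factor B forms the C3-cleaving enzyme of the alternative pathway. C1 inhibitor, the product of SERPING1, and factor I act in solution, whereas CD46, CD55 and CD59 protect the membrane of the cell that carries them. The liver supplies most plasma complement, and astrocytes and glioma cells are among the cells known to make complement components locally.

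Promoter windows from RefSeq (GRCh38.p14), each running from 250 bases before to 50 bases after an annotated start, were found for 6 of the 9 genes, 11 windows in all. No entry was found for C3, C1S and SERPING1. Each window was searched on both strands for 4 short motifs named after factors that act in inflammatory transcription. These were the NF-kB site, which was present in 11.3% of all 35116 windows of the reference table, the gamma-activated (STAT) site TTCNNNGAA, present in 7.66%, the interferon-stimulated response element core GAAANNGAA, present in 8.11%, and the C/EBP core TTGCNNAA, present in 10.5%. One window each of CFB, C1R and CD59 is shown, since these are the 3 genes in which a match was found. They are written 5′ to 3′ on the strand of the gene, and capitals mark the matches. The CFB window lies at chr6:31945845-31946144 on the plus strand, the C1R window at chr12:7092396-7092695 on the minus strand and the CD59 window at chr11:33736430-33736729 on the minus strand.
CFB: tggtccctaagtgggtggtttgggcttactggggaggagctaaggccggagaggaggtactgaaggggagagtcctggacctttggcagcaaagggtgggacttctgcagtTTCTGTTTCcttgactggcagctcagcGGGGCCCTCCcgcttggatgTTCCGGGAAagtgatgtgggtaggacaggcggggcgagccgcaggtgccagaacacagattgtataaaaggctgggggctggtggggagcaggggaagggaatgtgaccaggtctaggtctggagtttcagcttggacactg
C1R: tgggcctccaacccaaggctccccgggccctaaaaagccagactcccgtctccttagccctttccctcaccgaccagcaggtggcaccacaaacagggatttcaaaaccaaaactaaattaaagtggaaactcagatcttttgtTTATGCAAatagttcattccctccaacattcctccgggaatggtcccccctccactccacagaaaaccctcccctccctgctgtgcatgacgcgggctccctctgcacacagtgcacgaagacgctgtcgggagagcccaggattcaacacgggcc
CD59: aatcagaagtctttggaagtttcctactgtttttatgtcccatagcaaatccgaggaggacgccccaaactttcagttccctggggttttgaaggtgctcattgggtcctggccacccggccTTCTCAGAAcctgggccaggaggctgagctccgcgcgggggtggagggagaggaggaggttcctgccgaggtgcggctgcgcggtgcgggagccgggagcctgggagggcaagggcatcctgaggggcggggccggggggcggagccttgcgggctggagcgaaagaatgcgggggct

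The CFB window held 3 matches, an interferon-stimulated response element core read on the reverse strand at -139 from the start, an NF-kB site at -112 and a STAT site at -92. The C1R window shown held a C/EBP core on the reverse strand at -106, and a second C1R window held a C/EBP core at -167 and a STAT site at -86. The CD59 window shown held a STAT site at -128. A further CD59 window held a pair of C/EBP cores, at -191 and -53. The windows of CFI, CD46 and CD55 held none of the 4 motifs. A match describes the letters of a window and not binding, which was not measured here.

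Depth was similar in both groups, with 31992167 to 37897044 reads in genes per library, recovered as whole fragments from the FPKM. A principal component analysis placed TNF-α replicates 2 and 3 apart from the other 4 libraries along the first component, which held 88.4% of the variance. In the same pair of libraries, genes longer than 8 kb received 16.6% and 17.9% of the reads, and in the other 4 libraries 28.8% to 29.1%. Neither library had an NC library beside it, so for a gene that moved in these libraries alone the treatment and the difference between libraries cannot be told apart. Markers of the glioma or astrocyte lineage summed to 624 to 674 FPKM in NC and 739 to 1237 FPKM in TNF-α, with 8 of 10 markers at 1 FPKM or more in at least 1 library, and with AQP4 at 0 reads throughout. The higher sum was mostly VIM, at a mean of 343 FPKM in NC and 753 FPKM in TNF-α, and the list did not move one way. GFAP, the defining astrocyte marker, fell from 8.24 to 2.19 FPKM (log2 fold change -1.54, adjusted p = 0.021 in the limma test described with C3). SOX2 and FABP7 had lower values in TNF-α without overlap (-0.84 and -0.46, limma adjusted p = 0.195 and 0.196). Without TNF-α replicates 2 and 3 the change was -0.10 for SOX2 and -0.90 for FABP7. Of the 10 microglia or macrophage markers, CD14 was the 1 gene that reached 1 FPKM in a library, PTPRC and TYROBP had 0 reads throughout, and the list summed to 0.869 to 1.25 FPKM in NC and 0.654 to 1.75 FPKM in TNF-α. The 5 hepatocyte markers summed to 0.0124 to 0.296 FPKM in NC and 0.342 to 0.540 FPKM in TNF-α, with TTR and FGB at 0 reads. The higher sum in TNF-α was SERPINA1, at a mean of 0.0225 FPKM in NC and 0.342 FPKM in TNF-α. ALB and APOA1 overlapped between the groups. The 4 fibroblast or pericyte markers stayed below 1 FPKM in sum in every library. The 4 endothelial markers summed to 6.21 to 6.80 FPKM in NC and 2.16 to 5.98 FPKM in TNF-α, nearly all of it KDR. The part of other cell types in the results below was not tested beyond these levels.

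C3, the central component on which all complement pathways converge, was the member with the clearest difference. C3 (ENSG00000125730, chr19:6677704-6730562, minus strand) was at 1.24, 1.03 and 1.47 FPKM in NC replicates 1 to 3, and at 9.19, 7.44 and 8.33 FPKM in TNF-α replicates 1 to 3. All TNF-α libraries lay far above all NC libraries, and TNF-α replicate 1, which resembled the NC libraries in composition, had the highest value of all. These levels rested on 282 to 393 reads per NC library and 1605 to 2459 reads per TNF-α library. The group means were 1.25 ± 0.218 and 8.32 ± 0.877 FPKM (SD, n = 3 each), a ratio of 6.67. In bulk RNA, a change in the number of cells that express a gene and a change in RNA per cell cannot be told apart.

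C3 rose by the test used for all genes, which was limma on log2(FPKM + 1) over the 12136 genes with at least 1 FPKM in at least 3 libraries, with a threshold of an adjusted p under 0.05 (Benjamini-Hochberg over these genes). C3 had a log2 fold change of 2.05, a standard error of 0.14 and an adjusted p of 0.00316. In that comparison 1.01% of the tested genes passed the threshold in either direction and 0.717% passed it as higher in TNF-α, 87 genes, among which C3 ranked 35 by size of change. The change and the rank depend on the pseudocount of 1, which understates changes of low genes. With a pseudocount of 0.1 the log2 fold change of C3 was 2.65. An exact two-sided permutation test of 3 against 3 libraries gave a p of 0.1, the smallest this design allows. Without TNF-α replicates 2 and 3 the log2 fold change of C3 was 2.19 (limma adjusted p = 0.000595). Here and for the genes below, such a fit sets 1 TNF-α library against 3 NC libraries, so the spread comes from the NC libraries alone and the lone TNF-α library is assumed to vary like them. Without NC replicate 2 the limma adjusted p was 0.0503, and it was 0.0749 on values rescaled to TPM, at changes of 1.98 and 2.03.

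**Figure D1:**
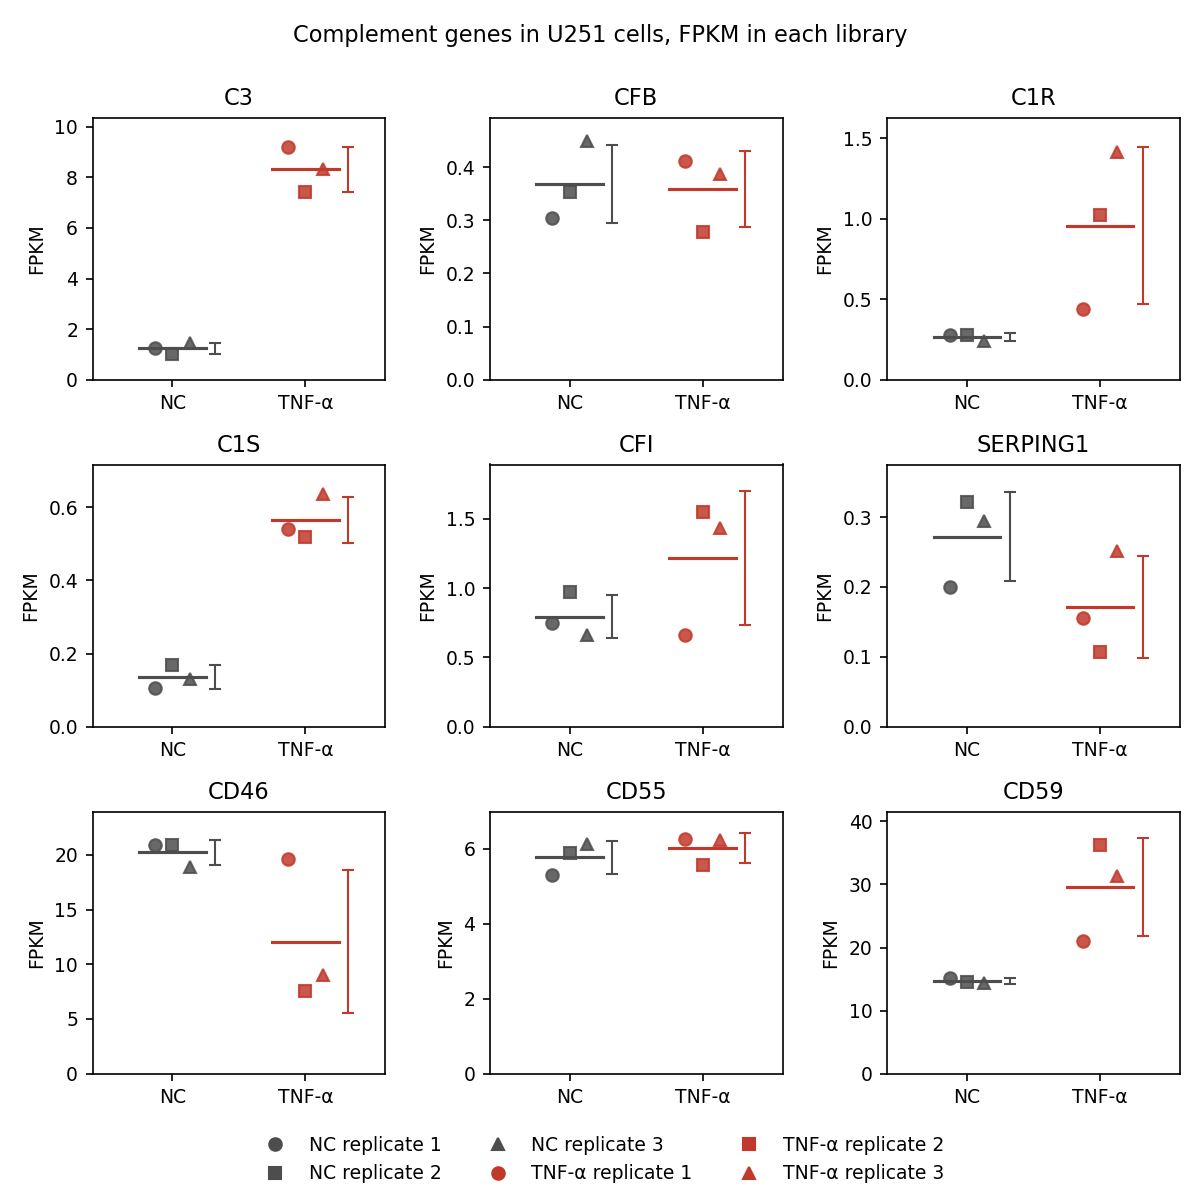
FPKM of the 9 complement genes in each library, with 1 panel per gene and its own linear axis from 0. Symbols are the NC (grey) and TNF-α (red) replicates, the horizontal line is the group mean and the bar beside it is 1 SD (n = 3). C3 sits at 1.03 to 1.47 FPKM in NC and 7.44 to 9.19 FPKM in TNF-α, whereas in CD46 TNF-α replicate 1 lies with the NC libraries and replicates 2 and 3 lie below them.

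The genes whose pattern over the 6 libraries was nearest to that of C3 were sought among all tested genes, as the Euclidean distance between log2(FPKM + 1) ratios to the NC mean. The 5 nearest were CTSS (cathepsin S, distance 0.394), LIF (a cytokine of the interleukin-6 family, 0.425), IRAK2 (a kinase of interleukin-1 receptor signalling, 0.429), HBEGF (a ligand of the EGF receptor, 0.655) and CD83 (a surface marker of mature dendritic cells, 0.667). Since they were chosen by nearness to C3, each of them was bound to be higher in all 3 TNF-α libraries. Their mean log2 fold changes lay between 1.86 (LIF) and 2.29 (CD83).

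CFB encodes factor B, which joins C3b to form the C3 convertase of the alternative pathway. CFB (ENSG00000243649, chr6:31945650-31952084, plus strand) was at 0.305, 0.354 and 0.449 FPKM in NC replicates 1 to 3 and at 0.411, 0.278 and 0.387 FPKM in TNF-α replicates 1 to 3. The groups overlapped, and the highest and lowest of the 6 values were in NC replicate 3 and TNF-α replicate 2. The means were 0.369 ± 0.0732 and 0.359 ± 0.0710 FPKM (SD, n = 3 each), from 36 to 72 reads per library. CFB fell below the filter of the test above, as did C1R, C1S, CFI and SERPING1, so these 5 genes were read from a limma-voom fit on the recovered reads of the 16638 genes with at least 10 reads in at least 3 libraries, a fit chosen after seeing the data. In that fit 0.709% of genes had an adjusted p under 0.05, and CFB had a log2 fold change of -0.03, a standard error of 0.29 and a limma-voom adjusted p of 0.956. The exons of CFB share 45.5% of their length with C2 and a further annotated gene, and how the counting divided those reads is not stated.

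Within a library the ratio of CFB to C3 does not depend on the scaling of that library. Among the NC libraries, in the order of their numbers, it stood at 0.246, 0.343 and 0.305, and among the TNF-α libraries at 0.0447, 0.0374 and 0.0465. The ratio was lower in all 3 TNF-α libraries, by -2.79 on the log2 scale (exact two-sided permutation p = 0.1, the smallest possible, and 0.25 adjusted over the 5 ratios compared).

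C1R and C1S encode the serine proteases that form the C1 complex with C1q. Their genes lie 9166 bases apart on chromosome 12, on opposite strands, C1S at chr12:6988259-7071032 (ENSG00000182326, plus strand) and C1R at chr12:7080199-7092607 (ENSG00000159403, minus strand). C1S was at 0.107, 0.170 and 0.130 FPKM in NC replicates 1 to 3 and at 0.539, 0.519 and 0.637 FPKM in TNF-α replicates 1 to 3. The 3 TNF-α libraries lay close together and well above the NC libraries, with 87 to 112 reads per TNF-α library and 25 to 36 per NC library. The means were 0.136 ± 0.0318 and 0.565 ± 0.0631 FPKM (SD, n = 3 each), a ratio of 4.17.

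C1S rose in the limma-voom fit, with a log2 fold change of 2.07, a standard error of 0.28 and an adjusted p of 0.0322. The size of the change was 1.90 to 2.24 when single libraries were left out, but the limma-voom adjusted p was above the threshold, up to 0.285, without each of NC replicates 1, 2 and 3 and TNF-α replicates 2 and 3, and 9.19e-06 without TNF-α replicate 1. In the fit without TNF-α replicate 1, 11460 of the 16638 genes had an adjusted p under 0.05. Without both TNF-α replicates 2 and 3 the log2 fold change of C1S was 2.01. On log2(FPKM + 1) with no filter on low values, a scale that compresses such low levels, the change was 0.46 with a limma adjusted p of 0.146.

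C1R was at 0.277, 0.280 and 0.238 FPKM in NC replicates 1 to 3 and at 0.439, 1.02 and 1.41 FPKM in TNF-α replicates 1 to 3. All TNF-α libraries were above all NC libraries, but replicate 1 much less so than replicates 2 and 3. The means were 0.265 ± 0.0235 and 0.958 ± 0.491 FPKM (SD, n = 3 each), a ratio of 3.62, from 45 to 59 reads per NC library and 83 to 202 per TNF-α library. The difference did not pass the test, with a log2 fold change of 1.66, a standard error of 0.49 and a limma-voom adjusted p of 0.199. Without TNF-α replicate 1 the change was 2.17 (limma-voom adjusted p = 2.5e-07), in a fit where 11460 of the 16638 genes passed. Without replicates 2 and 3 the change was 0.72. C1R shares 11.4% of its exon length with its neighbour C1RL on the same strand, and C1S shares 3.54% with EMG1, also on its own strand.

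The ratio of C1R to C1S stood at 2.59, 1.65 and 1.83 among the NC libraries and at 0.814, 1.97 and 2.22 among the TNF-α libraries, in the order of their numbers. TNF-α replicate 1 had the lowest ratio of the 6 libraries, and replicates 2 and 3 lay within the range of the NC libraries. The mean difference was -0.38 on the log2 scale and was smaller than the spread within TNF-α (exact two-sided permutation p = 0.7, adjusted 0.875).

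**Figure D2:**
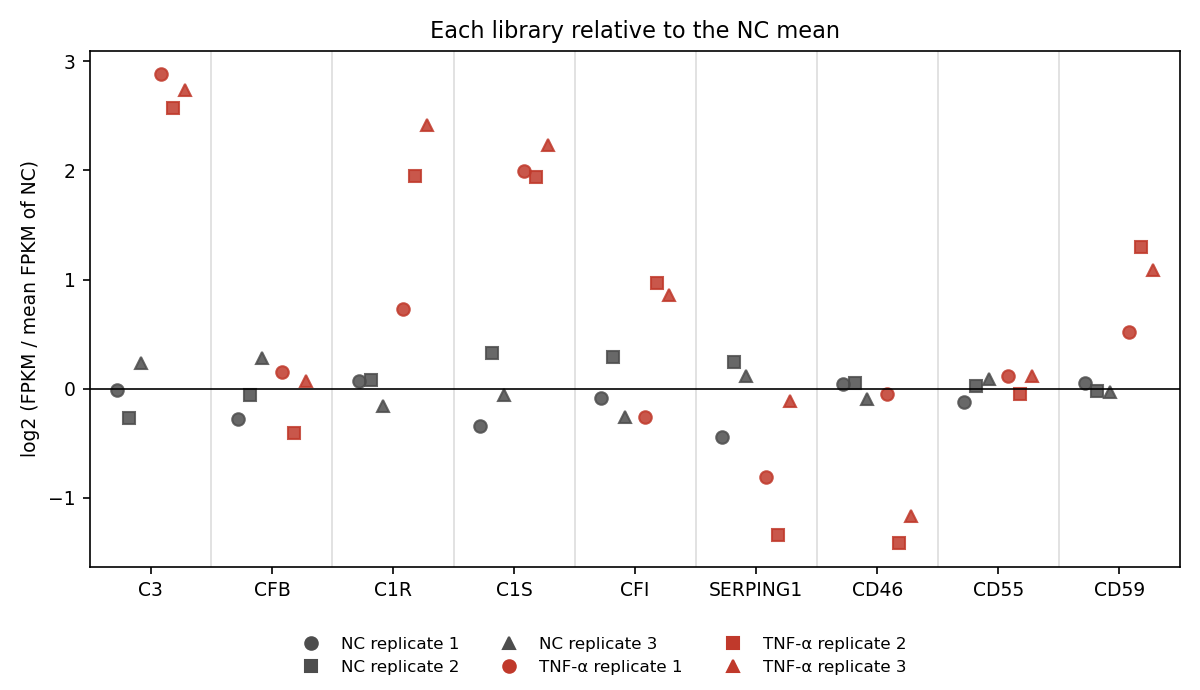
Each library of the 9 complement genes relative to the NC mean of that gene, as log2 of the FPKM ratio with no pseudocount. C3 and C1S lie at similar heights in all 3 TNF-α replicates, whereas C1R, CFI, CD46 and CD59 separate TNF-α replicate 1 (circle) from replicates 2 (square) and 3 (triangle).

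The soluble regulators showed no difference that passed the test. CFI, which encodes the protease factor I that cleaves C3b and C4b together with a cofactor, was at 0.749, 0.970 and 0.664 FPKM in NC replicates 1 to 3 and at 0.664, 1.55 and 1.44 FPKM in TNF-α replicates 1 to 3. TNF-α replicate 1 lay at the lowest NC value and replicates 2 and 3 lay above the highest. The means of CFI (ENSG00000205403, chr4:109740694-109802179, minus strand) were 0.794 ± 0.158 and 1.22 ± 0.482 FPKM (SD, n = 3 each), with a log2 fold change of 0.51, a standard error of 0.37 and a limma-voom adjusted p of 0.337. The change of CFI was 0.93 without TNF-α replicate 1 (limma-voom adjusted p = 0.00044), in a fit where 11460 of the 16638 genes passed. The change was -0.24 without replicates 2 and 3, so its direction rested on those libraries. An overlapping gene shares 32.04% of the exon length of CFI.

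SERPING1 encodes C1 inhibitor, the serpin that inactivates C1r and C1s. SERPING1 (ENSG00000149131, chr11:57597387-57614853, plus strand) was at 0.200, 0.322 and 0.294 FPKM in NC replicates 1 to 3 and at 0.155, 0.107 and 0.251 FPKM in TNF-α replicates 1 to 3. TNF-α replicates 1 and 2 were below every NC library, and replicate 3 was within the NC range. With 10 to 38 reads per library this was the member with the fewest reads. Its means were 0.272 ± 0.0639 and 0.171 ± 0.0735 FPKM (SD, n = 3 each), and the log2 fold change was -0.70 with a standard error of 0.43 and a limma-voom adjusted p of 0.268.

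The membrane regulators were the most abundant members in NC cells. CD59 encodes the lipid-anchored protein that blocks assembly of the membrane attack complex. CD59 (ENSG00000085063, chr11:33703010-33736491, minus strand) was at 15.2, 14.5 and 14.4 FPKM in NC replicates 1 to 3 and at 21.05, 36.3 and 31.3 FPKM in TNF-α replicates 1 to 3. Every TNF-α library was above every NC library, with replicate 1 the lowest of the 3. The means were 14.7 ± 0.435 and 29.6 ± 7.78 FPKM (SD, n = 3 each), a ratio of 2.01.

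The CD59 difference did not pass the threshold over all genes, with a log2 fold change of 0.93, a standard error of 0.21 and a limma adjusted p of 0.148 (unadjusted 0.0045). The change was 1.14 without TNF-α replicate 1 (limma adjusted p = 1.87e-05), in a fit where 9630 of the 12136 genes passed. It was 0.49 without replicates 2 and 3, with an adjusted p of 0.0185 that rests on the spread of the NC libraries alone (limma). CD59, CD46 and C3 have 10358, 8708 and 8328 bases of exon and so belong to the genes over 8 kb, whose share of reads was low in TNF-α replicates 2 and 3. The part of this difference in their changes was not tested. Log2 ratios were also corrected for the GC content and length of the longest annotated transcript of each gene. The change was then 1.37 for CD59 (limma adjusted p = 0.111) and 2.01 for C3 (limma adjusted p = 0.000762). On TPM the change of CD59 was 0.46. An overlapping gene on the same strand shares 6.07% of the exon length of CD59.

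CD46 encodes membrane cofactor protein, a cofactor for cleavage of C3b and C4b by factor I. CD46 (ENSG00000117335, chr1:207752057-207795513, plus strand) was at 20.9, 20.9 and 18.9 FPKM in NC replicates 1 to 3 and at 19.6, 7.58 and 9.04 FPKM in TNF-α replicates 1 to 3. TNF-α replicate 1 was within the NC range, and replicates 2 and 3 were far below it. The means were 20.2 ± 1.15 and 12.1 ± 6.55 FPKM (SD, n = 3 each), with a log2 fold change of -0.81, a standard error of 0.33 and a limma adjusted p of 0.195. Without replicates 2 and 3 the change was -0.04. Without replicate 1 it was -1.19 (limma adjusted p = 2.29e-05), in a fit where 9630 of the 12136 genes passed. After the same correction for GC content and transcript length the change of CD46 was -0.33 (limma adjusted p = 0.170).

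CD55 encodes decay-accelerating factor, which dissociates the C3 convertases. It lies 365252 bases from CD46 on chromosome 1 (ENSG00000196352, chr1:207321376-207386804, plus strand). CD55 was at 5.29, 5.88 and 6.13 FPKM in NC replicates 1 to 3 and at 6.26, 5.56 and 6.25 FPKM in TNF-α replicates 1 to 3. The groups overlapped and all 6 libraries lay within a narrow range. The means were 5.77 ± 0.434 and 6.02 ± 0.401 FPKM (SD, n = 3 each), with a log2 fold change of 0.05, a standard error of 0.12 and a limma adjusted p of 0.736. The direction of CD55 turned on TPM (-0.42), where the median change of all tested genes was also -0.42.

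Summed over CD59, CD46 and CD55, the membrane regulators came to 41.4, 41.3 and 39.5 FPKM in NC replicates 1 to 3 and to 46.9, 49.4 and 46.6 FPKM in TNF-α replicates 1 to 3. On this scale the sum was somewhat higher in every TNF-α library than in every NC library. Its direction depends on the library size inside the FPKM. Scaled to the reads in genes instead, the sum stood at 39.5, 39.6 and 36.5 for NC and at 43.4, 34.2 and 35.4 for TNF-α, so that replicates 2 and 3 were below every NC library. The shares within the sum do not depend on that scaling. CD59 made up 36.8%, 35.2% and 36.5% of it in NC and 44.9%, 73.4% and 67.2% in TNF-α. CD46 made up 50.4%, 50.6% and 47.9% in NC and 41.8%, 15.3% and 19.4% in TNF-α. In TNF-α replicate 1 the shares of CD59 and CD46 were nearly equal, and in replicates 2 and 3 CD59 was by far the larger. Relative to SERPING1 in the same library, CD59 was higher in TNF-α by 1.69 on the log2 scale (exact two-sided permutation p = 0.1, adjusted 0.25), CD55 by 0.79 (p = 0.2 by the same exact test, adjusted 0.333), and CD46 differed by -0.15 (exact p = 1). The ratio of CD59 to SERPING1 stood at 76.2, 45.2 and 49.0 in NC replicates 1 to 3. In TNF-α replicates 1 to 3 that ratio stood at 135, 339 and 125. SERPING1 had 10 to 38 reads per library, so the ratios to it are uncertain.

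**Figure D3:**
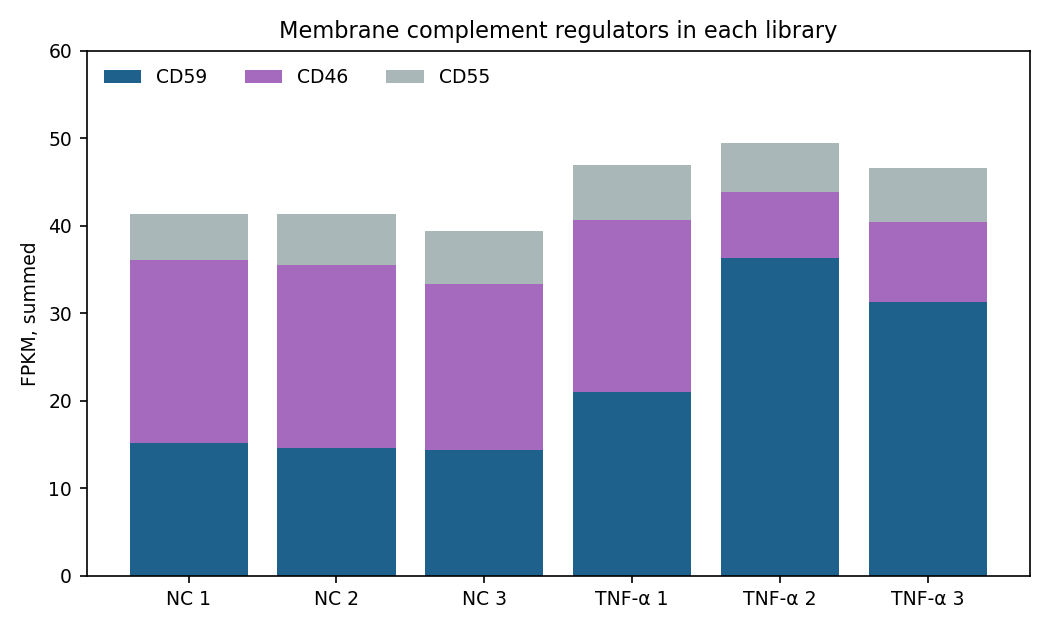
Stacked bars of the FPKM of CD59 (bottom), CD46 (middle) and CD55 (top) in each of the 6 libraries, on a linear axis from 0. The total bar height is between 39.5 and 49.4 FPKM in all libraries. The CD59 segment is 35.2% to 36.8% of the bar in NC, and 44.9%, 73.4% and 67.2% in TNF-α replicates 1 to 3.

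The order of the levels also differed between the groups. Such an order compares different genes, so it is rough and depends on the exon lengths inside the FPKM. In NC cells it ran CD46, CD59, CD55, C3, CFI, CFB, SERPING1, C1R and C1S from highest to lowest, and the neighbours that overlapped were CFB with SERPING1 and SERPING1 with C1R. In TNF-α cells it ran CD59, CD46, C3, CD55, CFI, C1R, C1S, CFB and SERPING1, and the overlapping neighbours were CD46 with C3, CFI with C1R and C1R with C1S. C3 was below CD55 in every NC library and above it in every TNF-α library. C1S, the lowest member in NC cells, was above CFB and SERPING1 in all TNF-α libraries.

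Over the 9 genes, 4 were tested on log2(FPKM + 1), of which C3 was called, as higher, and 3 (C3, CD46 and CD59) had an unadjusted p under 0.05, a level reached by 24.2% of all tested genes. Their median log2 fold change was 0.49, beside 0.04 over all tested genes. In the limma-voom fit all 9 were tested, 2 were called (C3 and C1S, both higher) and 5 had an unadjusted p under 0.05, a level reached by 24.7% of all genes in that fit. The median there was 0.51, beside -0.01 over all genes. The groups did not overlap and TNF-α was higher for C3, C1R, C1S and CD59, 4 of the 9, where 13.4% of the genes in that fit behaved so. No member was lower in TNF-α without overlap, where 15.5% of the genes were.

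**Figure D4:**
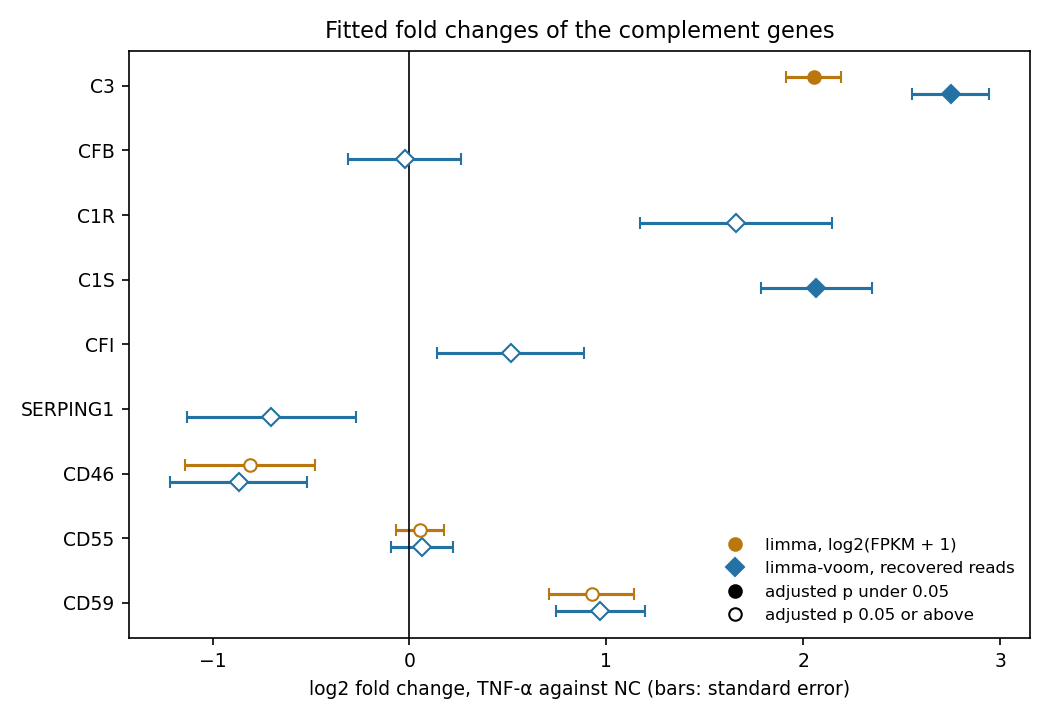
Fitted log2 fold changes of TNF-α against NC for the 9 complement genes, with bars of 1 standard error. Circles are limma on log2(FPKM + 1), given for the 4 genes tested there, diamonds are limma-voom on recovered reads, and filled symbols have an adjusted p under 0.05. C3 is filled in both fits (2.05 and 2.75) and C1S in limma-voom (2.07), while the other points are open.

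The wider complement system was described from a list of 49 further components, regulators and receptors. Of these, 20 had 0 reads in all libraries, among them the C1q chain genes C1QA, C1QB and C1QC and the receptors CR1 and CR2, and 25 had at most 3 reads in every library. A count of 0 allows up to 3 reads per library, so that such genes were not detectable at this depth. In the test on log2(FPKM + 1) 4 genes of the list were tested and 0 were called by limma. Of these 4, C5 alone had an unadjusted p under 0.05. In the limma-voom fit 13 were tested, 0 were called, and C5, C7 and C8G had an unadjusted p under 0.05. The median log2 fold change was 0.08 and -0.00 in these fits, beside 0.04 and -0.01 over all genes.

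Of the genes tested on log2(FPKM + 1), C5, CLU and C1QBP are described here. C5, which encodes the component that starts the terminal pathway, was at 1.05 ± 0.0541 FPKM in NC and 0.539 ± 0.268 FPKM in TNF-α (SD, n = 3 each), without overlap (log2 fold change -0.43, limma adjusted p = 0.195). Its TNF-α replicates were at 0.848, 0.396 and 0.372 FPKM, and the log2 fold change of C5 was -0.15 without replicates 2 and 3 and -0.05 with the GC and length correction. CLU, which encodes clusterin, an inhibitor of the terminal complex, was at 5.76 ± 0.198 and 9.0 ± 3.77 FPKM (0.49, limma adjusted p = 0.256). Its value in TNF-α replicate 1 was below and those in replicates 2 and 3 were above every NC library, at 4.81, 12.1 and 10.1 FPKM. C1QBP, a mitochondrial protein that also binds C1q, was the most abundant of these 3 at 112 ± 2.83 and 173 ± 54.6 FPKM (0.56, limma adjusted p = 0.197). TNF-α replicate 1, at 110.6 FPKM, was within the NC range and replicates 2 and 3 were above it, at 213 and 194 FPKM, and the log2 fold change of C1QBP was -0.02 without replicates 2 and 3.

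Among the genes with lower levels, C7 and C8G, which encode parts of the membrane attack complex, were higher in all 3 TNF-α libraries than in all NC libraries. C7 was at a mean of 0.131 FPKM in NC and 0.291 FPKM in TNF-α (limma-voom log2 fold change 1.14, adjusted p = 0.198). It had 21 to 27 reads per NC library and 29 to 51 per TNF-α library. C8G was at 0.335 and 1.18 FPKM (1.61, limma-voom adjusted p = 0.199), from 10 to 15 and 24 to 59 reads. C1RL, the neighbour of C1R, went the other way without overlap, at 1.05 and 0.891 FPKM (-0.22, limma-voom adjusted p = 0.415). Of the 13 genes of the list in the limma-voom fit, 2 were higher without overlap (C7 and C8G) and 2 lower (C5 and C1RL). Over all genes in that fit the shares were 13.4% and 15.5%. Since C4A and C4B are near-identical copies, reads of these genes could have been split between them, and their levels are uncertain.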

How the data were processed

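Poly(A)-selected RNA of 6 U251 cultures (3 NC, 3 TNF-α) was sequenced after preparation with a NEBNext Ultra kit, which as named does not mark strand. The submitters' processing notes list HISAT2 2.0.5, StringTie 1.3.3b, featureCounts 1.5.0 and further tools. The role of each tool, the genome build and the use of strand in counting are not given in the sources used here. The authors deposited FPKM per gene and library with gene lengths, and the 58735 genes matched GENCODE 29 (Ensembl 94, GRCh38) in name, start, end and merged exon length. Reads of antisense and overlapping genes may be shared. The table also held 6 expression columns whose names fit none of these samples, and they were not used here. Reads were recovered as whole fragments (100% of values within 0.01 of a whole number). The library size inside the FPKM was 0.925 to 0.959 of the reads in genes in NC and TNF-α replicate 1 and 0.693 and 0.759 in TNF-α replicates 2 and 3, and this factor scales every FPKM of a library alike.

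Groups were taken from the sample titles. The groups were compared with limma 3.58.1 in R 4.3.3 (eBayes with trend, two-sided) on log2(FPKM + 1), a pseudocount of 1, which understates changes of low genes, and with limma-voom on recovered reads scaled by the library size inside the FPKM. All adjusted p-values of genes are from limma or limma-voom over all genes tested. Exact two-sided permutation tests served for the ratios and single values. The scripts were tested on simulated data. The 9 genes, the wider list of 49 and the marker lists were chosen with earlier results of these data known. Described with values were the 9 genes, genes of the wider list that passed the filter on FPKM or did not overlap, and the 5 genes nearest in pattern to C3. The other genes of the wider list in the limma-voom fit were counted without values, and markers were named as examples of their lists. A gene of the wider list that passed the filter is not reported here. CFB did not pass the filter on FPKM, so no genes nearest in pattern were sought for it. C7, C8G and C1RL were named after their values were seen. Alternatives were the pseudocount, the filter, TPM, quantile normalization, median centring, eBayes options, the replicate block, voom on total reads, the summed membrane regulators per reads in genes (added after seeing the data), a GC and length correction (splines with 5 degrees of freedom), protein-coding genes only and leaving out libraries. In the GC and length correction both values were those of the longest annotated transcript of each gene. Intervals and floors cover counting error only. Tables and plots were made with Python 3.11.15 and matplotlib 3.10.9.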

Additional observations from a re-analysis of the deposited data

How the results depend on the processing

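The number of complement genes called on log2(FPKM + 1) was 1 and stayed at 1 in 16 of 21 alternatives. It was 0 on TPM, 2 without TNF-α replicates 2 and 3 (C3 and CD59, in a fit whose lone TNF-α library is assumed to vary like the NC libraries), 2 by limma-voom with at least 10 reads (C3 and C1S), and 0 to 3 when single libraries were left out, with 0 without NC replicate 2 and 3 without TNF-α replicate 1. Over all genes 123 were called, against 58 with no filter, 79 with at least 5 FPKM, 58 on TPM, 185 with quantile normalization, 24 with the replicate number as a block, 77 by voom on total reads, 338 with the GC and length correction, 732 without TNF-α replicates 2 and 3, and 10 to 9630 when single libraries were left out, the lowest without NC replicate 2 and the highest without TNF-α replicate 1. In the fit without TNF-α replicate 1, 9630 of the 12136 genes were called, and 3 of the 4 members tested. The wider list had 0 to 4 calls when single libraries were left out, the 4 being all of its tested genes in that same fit. Its median log2 fold change was 0.52 with at least 5 FPKM, -0.40 on TPM, -0.077 with quantile normalization, -0.19 by voom on total reads and -0.086 without TNF-α replicates 2 and 3. With at least 5 FPKM, CLU and C1QBP were the only genes of the wider list tested. Over all genes tested the medians in these alternatives, in the same order, were 0.15, -0.42, 0.0081, -0.21 and -0.0065. The cause of these shifts was not tested.

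C3 kept its direction in all 21 alternatives, with limma adjusted p-values from 1.03e-05 to 0.0749, the lowest without TNF-α replicate 1. The sign of CFB turned when NC replicate 3 (0.12), TNF-α replicate 2 (0.14) or both TNF-α replicates 2 and 3 (0.18) were left out, in a range of -0.16 to 0.14 over single libraries. CFI turned to -0.24 without TNF-α replicates 2 and 3, and CD55 to -0.42 on TPM and -0.20 by voom on total reads, where the median change over all genes was -0.42 and -0.21. The C1R to C1S ratio turned to 0.14 with a pseudocount of 1 and ranged from -0.65 to 0.075 over single libraries, and the CD46 to SERPING1 ratio ranged from -0.59 to 0.31. Same-numbered libraries of the groups deviated together with correlations of -0.01, -0.18 and 0.12, so the numbers were not taken as pairs. With the replicate block C3 was still called (limma adjusted p = 0.0402), and CD46, CD55 and CD59 still did not pass. The block was not run in the limma-voom fit. There were 3 libraries per group, of which TNF-α replicates 2 and 3 stand apart.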
